A study of Saccharomyces cerevisiae with 2 samples.

Results

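A group of C/D box small nucleolar RNAs (snoRNAs) that guide methylation of the 18S rRNA was followed in the CRAC data of Rbp95. Rbp95 is a ribosome assembly factor of the yeast nucleolus. The group comprised snR54, snR51, snR41, snR70 and snR79, and these 5 genes are among the 36 RNAs of the deposited snoRNA lists. All 5 have known targets in the small subunit rRNA, but the listed guides snR128, snR52 and snR40 also do and are not in the group. The group was chosen with earlier results of these data known. There was 1 library from cells whose Rbp95 carries a C-terminal HTP tag (His6, a TEV protease site and protein A) and 1 library from untagged control cells. Both strains have the BY4741 background per the labels, while the study's methods name BY4742 for the control. The deposited design text names Nap1_HTP in place of Rbp95, so the title of the sample decided which protein the tagged library stands for. Both cultures were grown to an OD of 0.6 and crosslinked with UV light for 100 s, so the groups share the irradiation and differ in the tag. They share the strain background per the labels only, and the study's methods give each library its own linker at the RNA 5′ end. With 1 library per group there is no replicate check of any difference between them, and no test between the libraries was made.

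C/D box snoRNAs form particles with the methyltransferase Nop1. A stretch upstream of box D or box D′ pairs with the rRNA, and the paired nucleotide at a fixed distance from the box receives a methyl group on the 2′-O of its ribose. In yeast most of these guides are not essential, and the modified nucleotides of the 18S rRNA lie largely in its functional and conserved parts. In CRAC the tagged protein is purified with the RNA crosslinked to it, and the fragments are sequenced, so that reads on a snoRNA report RNA recovered with the protein and reads on the rRNA report where along the transcript such fragments lie.

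The methylated nucleotides and the 10 nucleotides on either side are shown because the pileup results refer to them. They were read from the deposited 35S pileup, written as DNA, and the methylated nucleotide is in capitals. Positions count from the first nucleotide of the 35S pre-rRNA, in which the 18S rRNA begins at nucleotide 701, so that subtracting 700 gives the 18S number. Genome coordinates are those of the RDN37-1 copy on the minus strand of chromosome XII in the R64 assembly. The rDNA is repeated, and the pileup does not separate its copies. How reads that match several copies were assigned is not known here.
snR51, A800 in the 18S rRNA, chrXII:457623-457643: cgaatggctcAttaaatcagt
snR41, A1241 in the 18S rRNA, chrXII:457182-457202: cttaacgaggAacaattggag
snR54, A1674 in the 18S rRNA, chrXII:456749-456769: ttaatcaagaAcgaaagttag
snR79, C1707 in the 18S rRNA, chrXII:456716-456736: gatcagatacCgtcgtagtct
snR41, G1826 in the 18S rRNA, chrXII:456597-456617: atggtcgcaaGgctgaaactt
snR70, C2339 in the 18S rRNA, chrXII:456084-456104: gtacacaccgCccgtcgctag
snR51, T5980 in the 25S rRNA, chrXII:452443-452463: tgattttcagTgtgaatacaa
The 6 sites in the 18S rRNA thus comprise 3 adenosines, 2 cytidines and 1 guanosine, and the additional site of snR51 in the 25S rRNA is a uridine. They differ in composition, with 6 G or C among 21 nucleotides at the snR54 site and 14 at the snR70 site.

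The genes of the members are organized differently. SNR41 (chrXVI:719148-719242), SNR70 (chrXVI:718887-719050) and SNR51 (chrXVI:718700-718806) follow each other on the minus strand, with 97 nucleotides between SNR41 and SNR70 and 80 nucleotides between SNR70 and SNR51, and are known to be cut from a common precursor. SNR54 (chrXIII:163535-163620) lies on the minus strand within the span of IMD4 (chrXIII:162194-164176), which encodes an inosine monophosphate dehydrogenase and is known to host this snoRNA in its intron. SNR79 (chrXII:348427-348510) overlaps no protein-coding gene and is also on the minus strand.

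Reads of the tagged library fell on all 5 members. The same holds for each of the 36 RNAs of the lists, so it does not set the members apart. For snR54 the tagged cells gave 65 reads per 100000, against 1 in the untagged cells. For snR51 they gave 65, and the control list had no entry for it. For snR70 they gave 59, against 1. For snR41, the guide of a pair of 18S sites, they gave 52, again with no control entry. These 4 snoRNAs had values of 52 to 65 with Rbp95-HTP, whereas snR79 had only 4 reads per 100000 and no control entry. Each value is a number out of 100000 reads of its library. Because the sequencing depth is not known, no interval is given, and no fold is given where the control has no entry.

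Each of the 5 members had a higher value with Rbp95-HTP than in the control or was absent from the control list. This was also the case for 97.2% of the RNAs of the lists, the exception being snR17A, a gene for the U3 snoRNA, so the direction does not set the members apart. Absent from the control list were 3 of the 5 members and 83.3% of the RNAs of the lists. The control list held only 6 RNAs, whose values add up to its stated total of 8176, and was made up almost entirely of snR17A, and the 2 members in it had the lowest value that the scale can show. Fewer molecules of an RNA and fewer crosslinks per molecule cannot be told apart in such values.

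**Figure D1:**
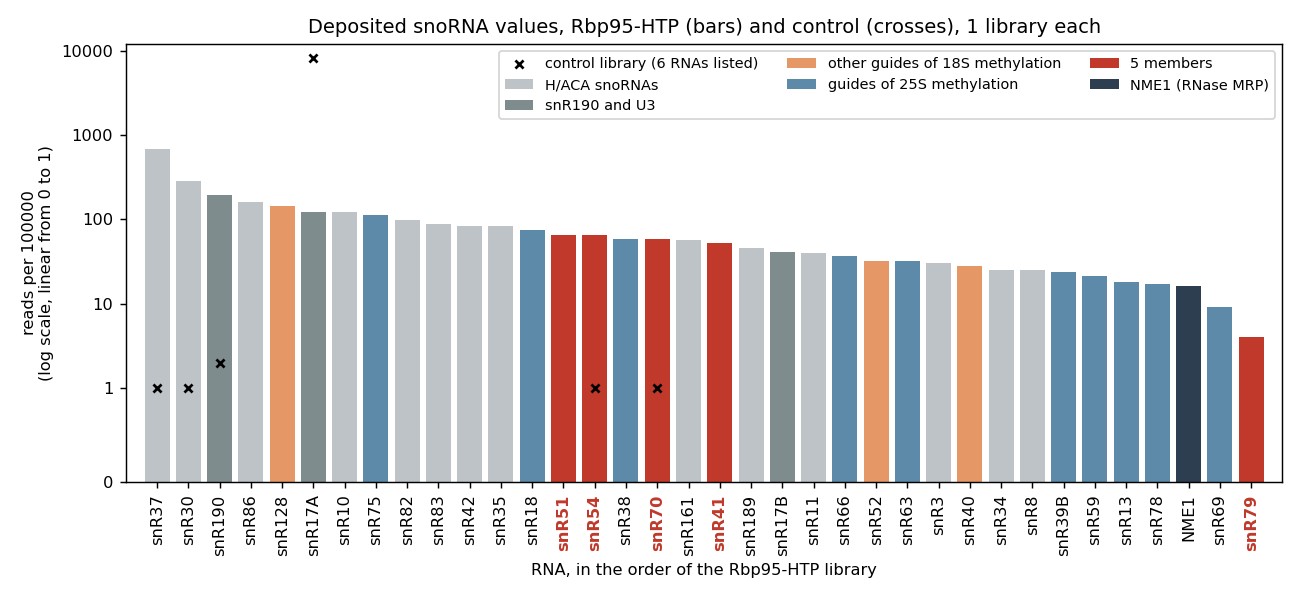
Deposited values of the 36 RNAs in reads per 100000 on a log axis that is linear between 0 and 1, with bars for the Rbp95-HTP library and crosses for the 6 RNAs of the control list, 1 library each and no error bars. The members, in red, lie together between 52 and 65 except snR79, which is the lowest bar with 4, and of them only snR54 and snR70 have a cross, at 1.

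The members differ in gene length, from 84 nucleotides for snR79 to 164 nucleotides for snR70, so levels were set against each other per 100 nucleotides of gene length. On this scale snR54 had 75.6, snR51 60.7, snR41 54.7, snR70 36.0 and snR79 4.76 reads per 100000 with Rbp95-HTP. snR54 thus stood highest, at rank 5 of the 36 RNAs, followed by snR51 at rank 8, snR41 at rank 9 and snR70 at rank 15, while snR79 at rank 35 was above NME1 only, the RNA of RNase MRP. snR54 was 15.9 times as high as snR79 and 2.10 times as high as snR70 per nucleotide of gene length. Within the common transcript the differences were smaller, since snR51 was 1.11 times as high as snR41 and 1.69 times as high as snR70. snR41 and snR70 changed places between the scales, because snR70 is the longest of the members. No spread is known for any of these levels, so it cannot be said which neighbors in this order differ. The scale assumes reads spread over the whole gene, which CRAC does not provide.

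In the order of the values as deposited, the members had neighbors outside the group. snR18, a guide of 25S methylation, was above snR54 and snR51 with 74 reads per 100000. snR38, also a guide of 25S methylation, had the same value as snR70, with 59. snR161, an H/ACA snoRNA that guides pseudouridylation, lay between snR70 and snR41 with 57, and the H/ACA snoRNA snR189 followed snR41 with 46. The neighbor of snR79 was snR69, a guide of 25S methylation, with 9 reads per 100000. All 5 of these neighbors were absent from the control list.

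Together the 5 members had 245 reads per 100000 with Rbp95-HTP, or 8.04% of the reads on listed RNAs, and the 2 members of the control list had 2 in all. The 3 snoRNAs of the common transcript accounted for 176 of these reads. Per 100 nucleotides of gene length the median was 54.7 for the members and 29.0 for the whole list. For all 8 listed guides of 18S methylation, members included, it was 45.4. RNAs without an entry do not enter these medians, so the levels depend on which guides were chosen and listed. Among C/D box snoRNAs known to guide methylation of the 25S rRNA only, 10 were in the list, with a median of 26.0 per 100 nucleotides and a range from 8.91 to 127. The 14 H/ACA snoRNAs had a median of 26.7 and a range from 12.3 to 175 on the same scale. The members' values thus lay within the range of the other groups except for snR79, which fell below both ranges.

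Yeast has further guides of 18S methylation. Of the 16 C/D box snoRNAs known to guide it, 8 were in the Rbp95-HTP list and 2, snR54 and snR70, in the control list. The share of all yeast snoRNAs that had an entry was not determined, so 8 of 16 cannot be called many or few. The 3 guides of the Rbp95-HTP list beyond the members, which also have other functions or targets, were absent from the control list. snR128, the U14 snoRNA, which is required for processing of the pre-rRNA besides guiding methylation, had 145 reads per 100000 with Rbp95-HTP. snR52 had 32 and snR40 had 28, and both of these also guide methylation of the 25S rRNA. Per 100 nucleotides of gene length these values were 115 for snR128, 34.8 for snR52 and 28.9 for snR40, so that snR128 stood above every member and the others stood between snR70 and snR79. The remaining 8 guides, snR74, snR87, snR77, snR47, snR53, snR55, snR56 and snR57, appeared in neither list. Whether an RNA without an entry had no reads is not stated.

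The 35S pileups give the number of reads, or hits, that cover each nucleotide, and those with a substitution or deletion there. Both pileups were limited to 100000 reads, so their heights do not reflect the depth of the libraries. On the 1800 nucleotides of the 18S rRNA the Rbp95-HTP library had 134092 hits, which covered 879 nucleotides, and the control had 420 hits on 203 nucleotides. The 18S part was 4.59% of 2922907 hits in the tagged pileup, but only 0.0104% of 4024737 hits in the untagged pileup. Control values near 0 in the 18S rRNA therefore do not mean that this library lacked rRNA reads, since its hits lay almost entirely elsewhere. The 18S hits of the Rbp95-HTP library came from at least 4841 reads that began at 54 positions, and those of the control from at least 11 reads at 6 positions. Reads from the mature 18S rRNA and from its precursors cannot be told apart. PCR of 16 cycles preceded sequencing and removal of duplicates is not stated, so reads with the same start may be copies of few molecules. All intervals cover counting error at most.

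Around each methylated nucleotide a window of 31 nucleotides was examined. The Rbp95-HTP mean was above the control mean in 5 of the 6 windows of the members in the 18S rRNA, compared with 75.6% of all 1770 such windows along the 18S rRNA. The window of snR51 had no hits in either library. Means above the median of all 18S windows, which was 27.6 hits per nucleotide, were found for 3 of the 6 member windows and for 49.9% of all windows. Both counts are close to the share over all windows. The methylated nucleotide itself was covered at 3 of the 6 sites, close to the 48.8% of all 18S nucleotides that were covered.

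The first site of snR41 carried by far the most hits. At its methylated nucleotide, A1241, the Rbp95-HTP library had 643 hits and the control had none. The mean over the window was 491 hits per nucleotide with Rbp95-HTP, a level that 97.2% of the 18S windows did not reach, against 0.0645 in the control. The highest value of the window, 737 hits, was reached from nucleotide 1244 on. For comparison, the highest point of the whole 18S rRNA was 797 hits at nucleotide 1185, which is 56 nucleotides upstream of A1241. Reads began at 4 positions of the window, with a net 535 reads at nucleotide 1234, 94 at 1244, 79 at 1229 and 29 at 1237, and a net 555 reads ended at nucleotide 1254. This window held 73.0% of all hits of the 6 member windows. The first site of snR40 lies 21 nucleotides downstream of A1241, so the same reads contribute to its window.

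The second site of snR41, at G1826, was covered by 10 hits only, and by none in the control. The window had a mean of 91.0 hits per nucleotide, with the highest value of 390 at its upstream edge. These reads belong to a peak of 492 hits at nucleotide 1805, the third highest of the 18S rRNA when peaks are taken at least 100 nucleotides apart, which lies 21 nucleotides upstream of G1826. A1241 thus lay within a strongly covered stretch, and G1826 downstream of one.

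At the site of snR70, C2339, there were 70 hits with Rbp95-HTP and none in the control. Every nucleotide of this window was covered, by 30 to 100 hits with a mean of 58.7, and 69.4% of the 18S windows had a lower mean. The highest value was reached within 4 nucleotides of C2339 on its upstream side.

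The sites of snR54 and snR79, which are 33 nucleotides apart, had no hits at the methylated nucleotide in either library. Between them a single stretch of 18 nucleotides, from nucleotide 1683 to 1700, was covered by 42 hits at each nucleotide with Rbp95-HTP. It begins 9 nucleotides downstream of A1674 and ends 7 nucleotides upstream of C1707, and it contributes to both windows. The window of snR54 had a mean of 9.48 hits per nucleotide with Rbp95-HTP and 0.452 in the control, where no nucleotide had more than 1 hit. The window of snR79 had a mean of 22.3 with Rbp95-HTP and 0 in the control, with the highest value of 78 hits from reads that began 12 nucleotides downstream of C1707. Both means were below the median of all 18S windows, and the snoRNAs themselves were the highest and the lowest of the members per nucleotide of gene length.

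No hits were found in the 18S window of snR51 in either library. The nearest covered nucleotide with Rbp95-HTP was 73 nucleotides downstream of A800 and had 72 hits. Windows without hits made up 23.9% of all 18S windows. In the 25S rRNA, the other target of snR51, T5980, had 41 hits with Rbp95-HTP and none in the control, and its window had a mean of 34.3 hits per nucleotide and a highest value of 104.

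**Figure D2:**
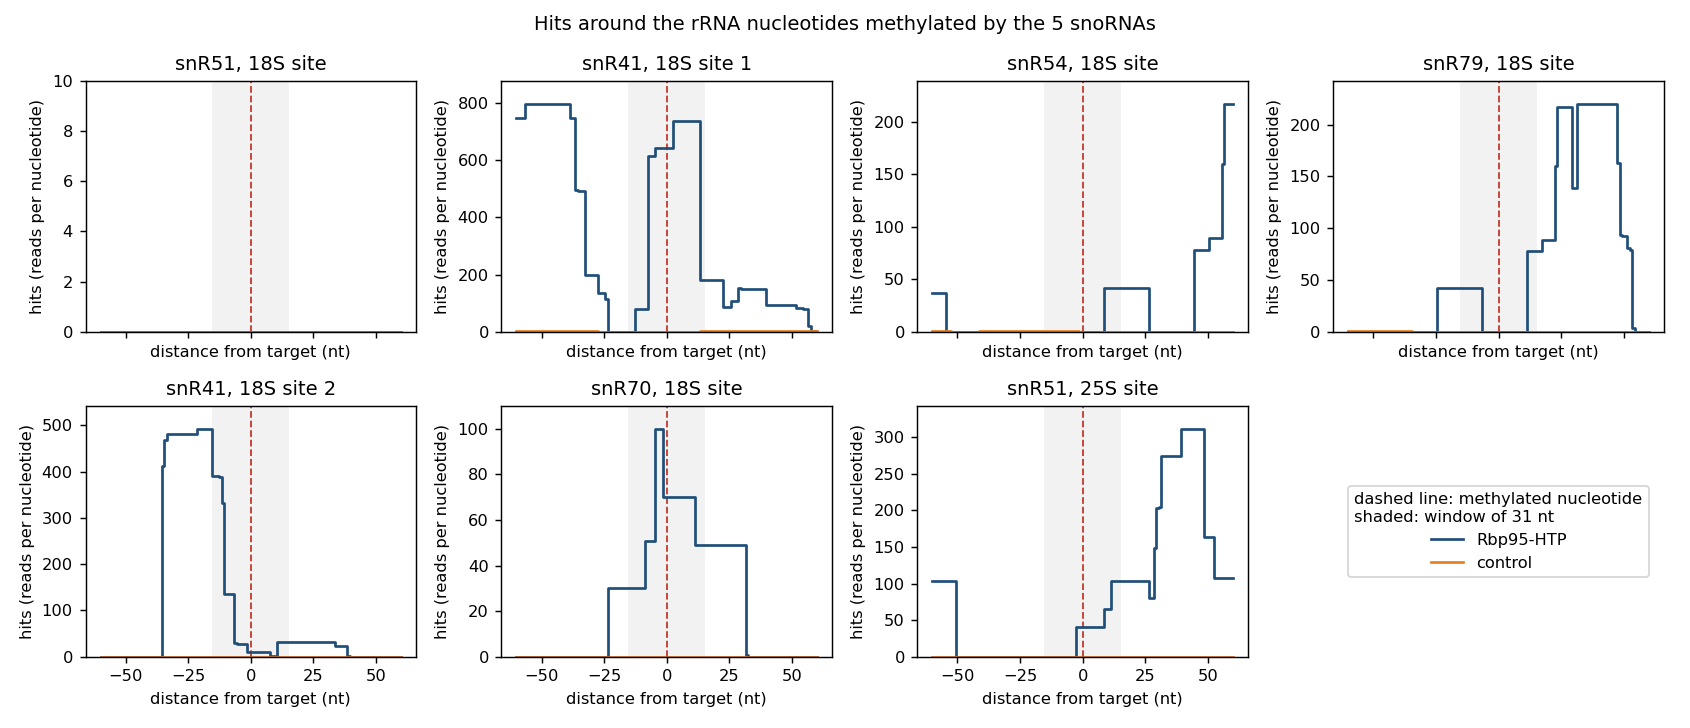
Hits per nucleotide in the Rbp95-HTP library (blue) and the control (orange) from 60 nucleotides upstream to 60 nucleotides downstream of each methylated nucleotide (dashed line), with the window of 31 nucleotides shaded and a vertical axis of its own in each panel. A1241 of snR41 (site 1) has 643 hits and G1826 (site 2) has 10, while A800 of snR51 and its surroundings have none and the control stays near 0 throughout.

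The 6 member windows together make up 10.3% of the length of the 18S rRNA. They held 15.5% of its hits with Rbp95-HTP and 3.81% of the 420 control hits. The other 5 windows, without the first window of snR41, made up 8.61% of the length and held 4.19% of the hits with Rbp95-HTP, so that a single site decided whether the windows held more or less of the hits than of the length.

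The 18S rRNA has 18 sites of guided methylation. Over the 6 sites of the members the median of the window means was 40.5 hits per nucleotide, with a range from 0 to 491. Over the 4 sites of snR128, snR52 and snR40 it was 42.8, with a range from 0 to 300.1, and over the 8 sites of guides that were in neither list it was 9.74, with a range from 0 to 116. The ranges overlapped. Windows above the median of all 18S windows numbered 3 of 6, 3 of 4 and 3 of 8 in these groups. Some windows of neighboring sites overlap, so the sites are not independent of each other.

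**Figure D3:**
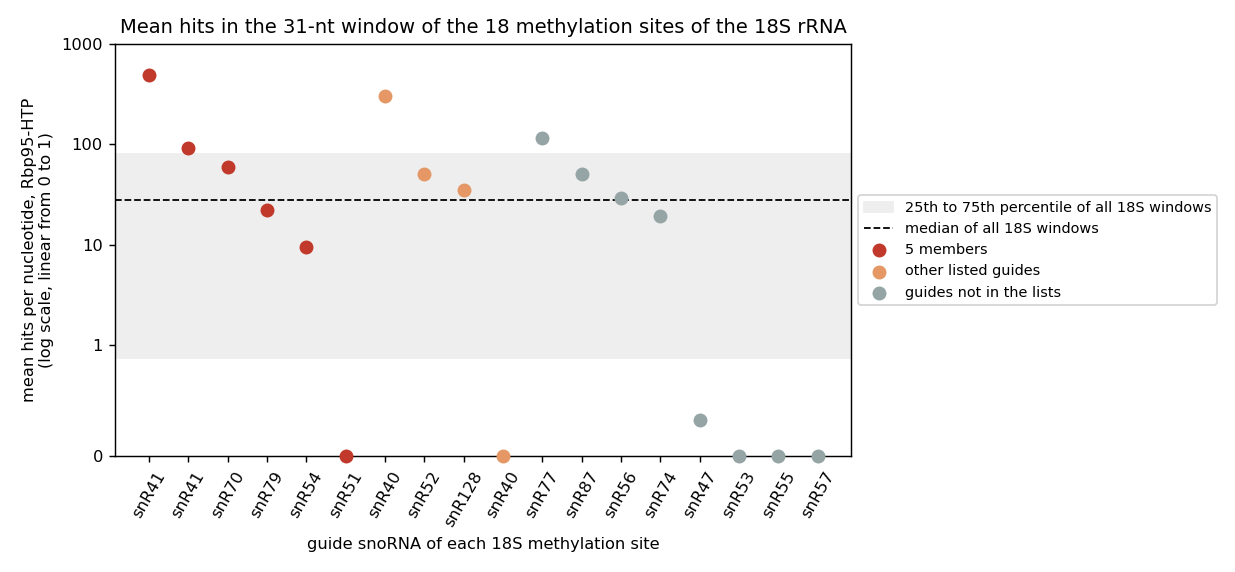
Mean hits per nucleotide with Rbp95-HTP in the window of 31 nucleotides around each of the 18 methylation sites of the 18S rRNA, on a log axis that is linear between 0 and 1, sorted within the groups of guides. The dashed line is the median of all 18S windows, 27.6, and the grey band reaches from their 25th to their 75th percentile. Above the line are 3 of 6 member sites, 3 of 4 sites of other listed guides and 3 of 8 sites of guides not listed.

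Altered reads can mark the crosslinked nucleotide. None of the hits at a methylated nucleotide was altered. The limit that a count of 0 allows was taken as 3 reads of the total. It treats each read as a separate molecule. Reads with the same start may be copies, so the real limits may be higher. At A1241 0 of 643 hits were altered, which allows a share of up to 0.467%, at C2339 0 of 70 hits, which allows up to 4.29%, and at G1826 0 of 10 hits, which allows up to 30%. At T5980 of the 25S rRNA none of 41 hits was altered, which allows up to 7.32%.

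The windows contained 35 nucleotides that were covered 100 times or more, of which 2 had an altered share of 10% or more. Over the whole 18S rRNA this was the case for 1.5% of such nucleotides, 5 of 334, and these 5 include the 2 of the windows. Nucleotides of a window are covered by the same reads, so they are not independent. The 2 altered nucleotides of the windows both lie at the sites of snR41. A1245, which is 4 nucleotides downstream of A1241, had 642 substitutions and no deletion among 737 hits, or 87.1% (95% Wilson interval 84.5 to 89.3%). A net 94 reads began at nucleotide 1244, and the number of substitutions at A1245 differed by 1 from the 643 reads that already covered A1241 to nucleotide 1243. The neighbors of A1245, nucleotides 1244 and 1246, each had 1 altered read among 737, or 0.136%. G1814, which is 12 nucleotides upstream of G1826, had 55 substitutions among 389 hits, or 14.1% (11.0 to 18%), and it was the last nucleotide of a net 56 reads. The intervals of both shares treat each read as independent. Reads with the same start may be copies, so these intervals may be too narrow. The control had no hit at either nucleotide, so its altered share could not be measured.

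**Figure D4:**
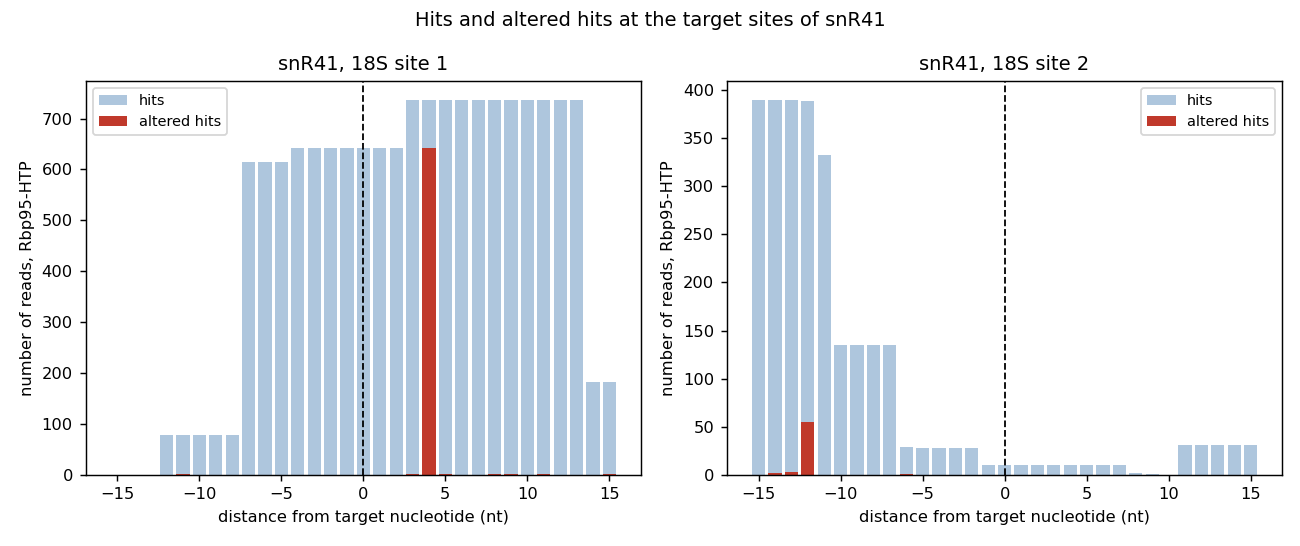
Number of reads (blue) and of altered reads (red) in the Rbp95-HTP library at each nucleotide of the windows of A1241 (left, site 1) and G1826 (right, site 2) of snR41, with the methylated nucleotide at 0. The tallest red bars are 642 of 737 reads at A1245 and 55 of 389 reads at G1814, while no read is altered at the methylated nucleotides.

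Over all nucleotides of the 6 windows, 715 of 20834 hits were altered with Rbp95-HTP, or 3.43% (95% Wilson interval 3.19 to 3.69%). Over the whole 18S rRNA the share was 1.03% with Rbp95-HTP and 1.19% in the control, where it rests on 5 of 420 hits. A1245 supplied 642 of the 715. Without A1245 the share was 0.363% (0.289 to 0.456%) in the windows and 0.551% (0.513 to 0.592%) over the whole 18S rRNA. In these sums a read counts at each nucleotide that it covers. The hits are thus not independent and the intervals are too narrow, so they cannot decide whether the shares differ. The windows are also part of the 18S rRNA. The windows of snR54 and snR79 had no altered hit among 294 and 690 hits, and that of snR70 had 3 among 1820.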

How the data were processed

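CRAC libraries of Rbp95-HTP cells and of an untagged control, 1 each, were compared. Reads were trimmed with Flexbar, aligned with Novoalign to the yeast genome (R64 per the submitters' processing notes) and processed with pyCRAC, whose versions are not given in the sources used here. Each deposited snoRNA value is a score, the reads on that RNA out of 100000, and was not treated as a count. The authors' 35S pileups, limited to 100000 reads, hold counts of hits, substitutions and deletions at each of 6858 nucleotides. Deposited totals per RNA class were not used.

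All 36 RNAs matched a name in the R64 gene table of RefSeq, the source of gene lengths and rRNA borders. snoRNA families and the 19 methylated nucleotides were taken from textbook knowledge, and the base in the pileup matched at 19 of 19. Members and lists were chosen with earlier results of these data known. Named were the members, the other listed guides of 18S methylation, neighbors in order, target nucleotides, window maxima, and nucleotides with at least 100 hits altered in at least 10%. The stretch between the snR54 and snR79 sites, read starts and ends, and the neighbors of A1245 were named after their values were seen. Net starts and ends are upward and downward steps of the hits, which are lower bounds. Wilson intervals (95%) and floors of 3 reads cover counting error only. Intervals and floors at single nucleotides treat each read as independent and may be too narrow where reads are PCR copies. For hits summed over nucleotides the intervals are too narrow even for counting error, since a read counts at each nucleotide it covers. Python 3.11.15, numpy 2.4.6, scipy 1.17.1 and matplotlib 3.10.9 were used. Window means and starts were recovered in 200 of 200 simulated pileups. Each simulated stretch had reads of 1 start and 1 length, so this checks the arithmetic only. Altered positions within the snoRNAs themselves were not analysed here. Alternatives concerned denominators, gene length, control subtraction, window width and the kind of alteration.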

Additional observations from a re-analysis of the deposited data

How the results depend on the processing

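No paired analysis was possible because there was 1 library per group, which also left no replicate to leave out. The members' share of the listed reads, 8.04%, was 8.50% without snR17A and snR17B, 8.33% after subtraction of the control, 15.5% per gene length and 23.4% among C/D box snoRNAs without U3. Per gene length 1 pair of members, snR41 and snR70, was in the opposite order, and none was after subtraction of the control. The member windows held 6.23% of the 18S hits with 5 nucleotides on either side and 26.2% with 30, and 0.713% of all 35S hits. The number of member windows above the 18S median was 3, and between 2 and 4 with other widths or with the highest hits in place of the mean. The altered share of the windows was 0.0096% for deletions alone, 4.05% for nucleotides with at least 100 hits and 7.74% with 5 nucleotides on either side. Leaving out A1245 gave 0.363%, and leaving out the first window of snR41 reduced the share of 18S hits to 4.19%, both chosen after seeing the data. Wider or narrower windows hold more or fewer nucleotides by construction.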
